A study of Gallus gallus with 12 samples.

Results

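HINTW, a gene of the female-specific W chromosome, was read at a high level in 4 of 12 pools of broiler breast muscle and at a low level in the other 8. The 4 high pools were phytase replicates 1 and 4 and restricted replicates 1 and 2. They were set against the 4 low pools of the same diets, which were phytase replicates 2 and 3 and restricted replicates 3 and 4. The pools were selected on a deposited log2 value above or below 5 for the transcript cluster whose only platform symbol is HINTW, so the split comes from a measured value and not from the labels. The labels give no sex for any bird.

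Affymetrix arrays had been used to measure expression in the breast muscle Pectoralis major of Ross PM3 birds, a broiler strain, at day 36. The diets were restricted phosphorus and calcium with added phytase, an enzyme that frees phosphate from plant phytate, the same restricted ration without the enzyme, and a normal ration, with 4 pools of each. Each array held a pool of 4 birds, so a pool can hold hens and cocks together, and its share of hens is not given. The 4 normal pools had no HINTW signal and stayed out of the main comparison; their values are given for reference. ACTA1, skeletal muscle actin, lay between 13.54 and 13.64 in all 12 pools. Of 7 markers of nerve and Schwann cells 3 reached 2.67, the mean level needed to be tested: NCAM1, which muscle also expresses, PMP22 and SOX10, with differences of -0.24, 0.13 and 0.01 between the HINTW-high and HINTW-low pools. SDs below are spreads between pools, and the number of arrays limits the precision. How birds were put into pools is not stated, so a p-value measures the spread between these pools only.

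In birds the female carries a Z and a W chromosome and the male a pair of Z chromosomes. The W holds few genes, many of them with a partner on the Z, and HINTW is a multicopy W gene related to histidine triad nucleotide-binding proteins. Birds balance the dose of Z genes between the sexes only in part, gene by gene, so Z-linked transcripts tend to be lower in hens. In a pooled muscle sample, fewer cells of a type and less RNA per cell cannot be told apart, and neither can a smaller share of hens and a lower level per hen.

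HINTW itself was at 7.66 and 7.57 in the phytase pools and at 8.06 and 8.08 in the restricted pools with signal. It was at 2.69 and 2.48 in the phytase pools and at 2.76 and 2.27 in the restricted pools without signal, and between 2.32 and 2.70 in the normal pools. The values nearest to the limit were thus 7.57 above it and 2.76 below it, and no pool lay between them. The means were 7.84 ± 0.27 with signal and 2.55 ± 0.22 without (SD, n = 4 each), a difference of 5.29 on the log2 scale. These values chose the pools and are a description, as are those of all clusters on the W.

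Other W-linked clusters split the pools in the same way. LOC430766, an uncharacterised gene that the gene table places on the W, was at 5.67 and 6.08 in the phytase pools and at 5.87 and 6.08 in the restricted pools with signal. It was at 1.85 and 1.77 in the phytase pools and at 1.79 and 2.18 in the restricted pools without signal, and between 1.73 and 2.45 in the normal pools. The sides did not overlap, and the difference of 4.03 was close in both diets, at 4.07 with phytase and 3.99 on the restricted diet.

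ATP5F1AW, the W copy of the alpha subunit of mitochondrial ATP synthase, differed less. It was at 5.34 and 5.04 in the phytase pools and at 6.21 and 5.96 in the restricted pools with signal. It was at 4.23 and 4.05 in the phytase pools and at 4.73 and 4.26 in the restricted pools without signal, and between 4.08 and 4.30 in the normal pools. The means were 5.64 ± 0.54 with signal and 4.32 ± 0.29 without (SD, n = 4 each), a 2.50-fold difference. The lowest pool with signal, phytase replicate 4, lay above the highest pool without it, restricted replicate 3. Without restricted replicate 1 the ATP5F1AW difference was 1.22, against 1.32 with all 8 pools. For HINTW and ATP5F1AW both restricted pools with signal lay above both phytase pools with signal.

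A further 14 clusters are annotated to HINTW together with LOC100857579. Of these, 12 had exactly the same values, and the 14 held 3 distinct sets of values. The repeated set averaged 7.78 ± 0.34 with signal and 3.53 ± 0.21 without (SD, n = 4 each). The other sets differed by 5.01 and 3.44, and in all 3 sets every pool with signal lay above every pool without it.

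Not every cluster placed on the W followed the split. In all, 18 clusters of 14 genes with 1 symbol were on the W in the gene table, and 6 of them were bright enough to be tested. All 4 pools with signal lay above all 4 without it in 5 of the 18, beside 1.78% of all clusters tested. These were HINTW, LOC430766, ATP5F1AW and dim clusters of LOC769000 and LOC427025, which differed by 0.89 and 0.34. HINTW could not overlap, since it made the split. The 18 also hold clusters too dim to be tested, and the 1.78% does not, so the shares are not alike. LOC426220 was at 4.08 and 3.79 in the phytase pools and at 4.08 and 3.94 in the restricted pools with signal. It was at 3.52 and 3.35 in the phytase pools and at 3.28 and 3.79 in the restricted pools without signal, so the sides met at 3.79. MBD2, a reader of methylated DNA, and NEDD4L, a ubiquitin ligase, are also placed on the W by the table, with differences of -0.11 and -0.19 and overlapping sides. Both were also read where HINTW was low, with means of 6.71 and 5.565 in the pools without signal. The normal pools were at 6.63 to 6.94 for MBD2 and 5.57 to 5.64 for NEDD4L. Whether these symbols stand for W copies or for copies on other chromosomes cannot be told from the annotation. MIR7B, LOC426615, LOC427010, UBAP2L2, ST8SIA3L, LOC425347, a second cluster of LOC769000 and the other clusters of LOC427025 lay between -0.01 and 0.54, were not tested and overlapped.

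Across the array, 32 of 12484 transcript clusters tested, or 0.256%, differed between the sides in limma with diet as a block at a Benjamini-Hochberg adjusted p under 0.05. Of these 30 were higher, or 0.24%, and 2 were lower, or 0.016%, in pools with signal. The higher ones hold the 17 clusters of HINTW, LOC430766 and ATP5F1AW already described, whose calls follow from the split and support nothing. Outside them were 15 clusters, of which 1 had a gene name, RPL17.

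RPL17, a protein of the large ribosomal subunit that the gene table places on the Z, was measured by a pair of clusters that disagreed. The dimmer cluster was at 5.30 and 5.21 in the phytase pools and at 5.20 and 4.80 in the restricted pools with signal. It was at 1.60 and 1.46 in the phytase pools and at 2.22 and 1.83 in the restricted pools without signal, and between 1.13 and 2.40 in the normal pools. It rose by 3.35 ± 0.19 (SE) on the log2 scale in pools with signal (limma, Benjamini-Hochberg adjusted p = 4.94e-06). Its mean of 1.78 without signal was under 2.67, so it passed the filter on low values only through the pools with signal, and no fold is given against so dim a level. With no filter the limma adjusted p was 1.41e-05. Leaving out any 1 of the 8 pools gave differences between 3.25 and 3.51, and adding an offset of 16 to the unlogged values gave 1.39. The brighter cluster was at 8.97 and 8.76 in the phytase pools and at 8.72 and 9.19 in the restricted pools with signal. It was at 9.22 and 9.0 in the phytase pools and at 9.24 and 9.15 in the restricted pools without signal. Its sides overlapped, and it differed by -0.24 ± 0.13 (SE, limma adjusted p = 0.749, Benjamini-Hochberg). The dimmer cluster thus had the on-and-off pattern of the W-linked clusters and the brighter one did not. Whether its probes also match a W copy was not tested.

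**Figure D1:**
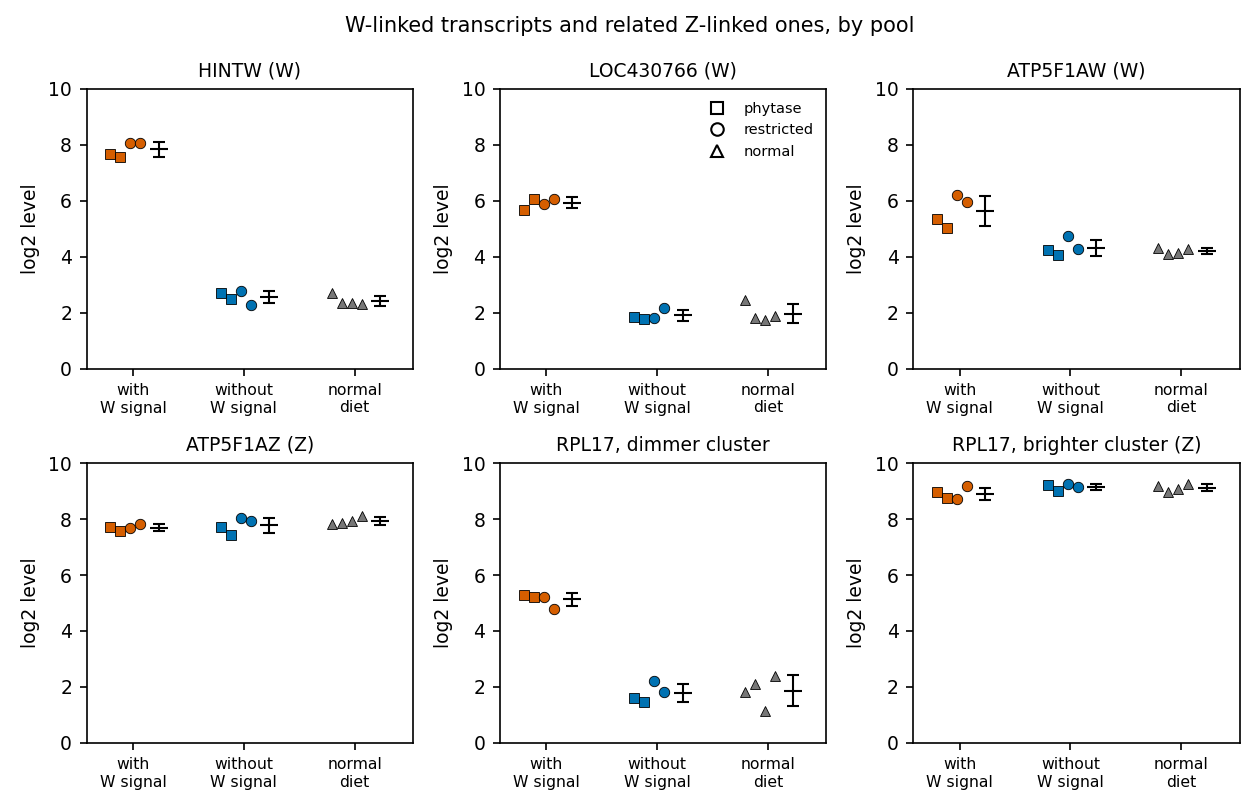
Deposited log2 levels in each pool of HINTW, LOC430766, ATP5F1AW, its Z partner ATP5F1AZ and the dimmer and brighter RPL17 clusters, with pools with W-linked signal left, pools without it in the middle and normal pools right; squares are phytase, circles restricted and triangles normal pools, and the error bars give mean ± SD of 4 pools. HINTW averaged 7.84 with signal and 2.55 without, the dimmer RPL17 cluster split the pools in the same way, and ATP5F1AZ and the brighter RPL17 cluster overlapped.

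The other 14 clusters called had neither a symbol nor a chromosome. Of these, 12 were higher with signal, with 11 distinct sets of values and differences from 1.5 to 5.68. In 9 of the 12 the mean without signal was under 2.67, so these too passed the filter only through the pools with signal. The largest difference belonged to cluster 15556859, at 8.07 and 8.06 in the phytase pools and at 8.62 and 8.54 in the restricted pools with signal. It was at 2.74 and 2.59 in the phytase pools and at 2.78 and 2.45 in the restricted pools without signal, and between 2.56 and 2.87 in the normal pools. In 11 of the 12 every normal pool also lay below every pool with signal. The exception was 15519112, with normal pools between 3.96 and 5.44 and pools with signal between 4.99 and 5.26. The call of 15519112 was lost without restricted replicate 1, at a difference of 1.47 and a limma adjusted p of 0.0598.

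No Z-linked cluster was called lower, yet the Z as a whole lay lower in pools with signal. On the Z, 331 clusters of 316 genes were tested, of 524 clusters and 498 genes on the array. Of the 331, 254 or 76.7% were lower and the median difference was -0.16, with quartiles of -0.32 and -0.02. Among 7719 autosomal clusters 52.0% were lower, with a median of -0.0075. The median over all clusters tested was 0.005. At an unadjusted p under 0.05, 54 Z-linked clusters or 16.3% were lower and 2 or 0.604% higher. On the autosomes 4.46% were lower and 1.75% higher at that level, and over all clusters 4.31% and 2.57%, together 6.88%. In either direction the Z-linked share was 9.42% without phytase replicate 2 and 10.6% without restricted replicate 1. All 4 pools with signal lay below all 4 without it in 14 Z-linked clusters, or 4.23%, beside 1.49% of autosomal clusters and 1.48% of all clusters. They lay above in 2, or 0.604%, beside 1.39% of autosomal clusters.

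**Figure D2:**
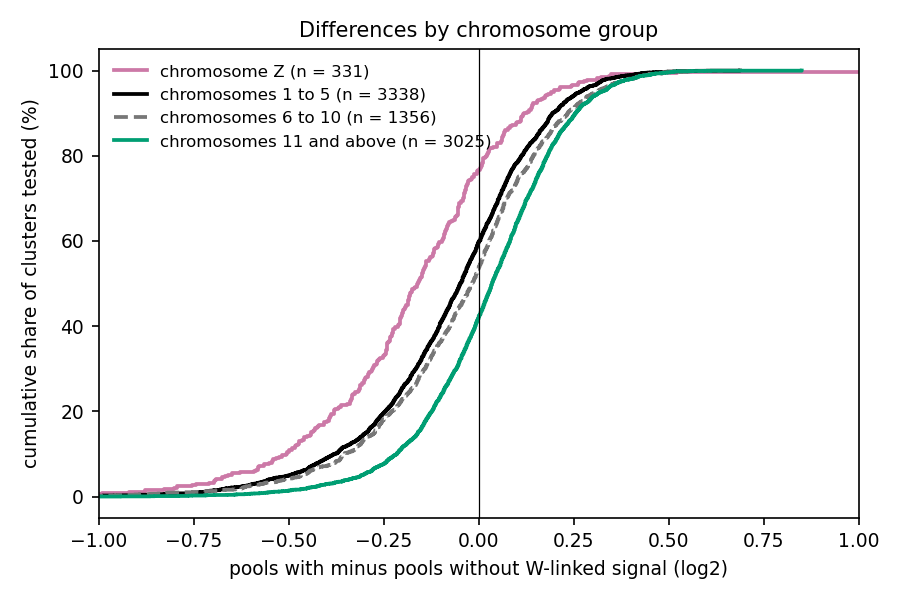
Cumulative share of clusters tested (percent) against the difference of pools with minus pools without W-linked signal (log2), for chromosome Z, chromosomes 1 to 5, 6 to 10, and 11 and above. At a difference of 0 the share was 76.7% for the Z, 59.9% for chromosomes 1 to 5, 53.8% for 6 to 10 and 42.4% for 11 and above; the dimmer RPL17 cluster, at 3.35, lies outside the range drawn.

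The lower Z was seen in both diets but not in every pool. The median Z-linked difference was -0.13 with phytase and -0.21 on the restricted diet, and 181 of the 331 clusters were lower in both. Both diets were lower in 54.7% of Z-linked and 30.9% of autosomal clusters. As the median over the Z-linked clusters of the deviation from the 8-pool mean, phytase replicates 1 and 4 were at 0.04 and -0.07 and restricted replicates 1 and 2 at -0.22 and -0.10. Without signal, phytase replicates 2 and 3 were at 0.16 and 0.07 and restricted replicates 3 and 4 at 0.09 and -0.01. The sides overlapped through phytase replicate 1, a pool with signal whose Z-linked median was above that of restricted replicate 4. Restricted replicate 1 was the lowest pool on the Z and also the lowest on the autosomes, at -0.05. On the Z the normal pools were between 0.00 and 0.09. Over all clusters on the array, restricted replicate 1 had a narrower spread, with quartiles of 2.22 and 4.63. The other arrays had lower quartiles of 2.08 to 2.15 and upper quartiles of 4.65 to 4.71. The part of that spread in the differences was not tested.

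**Figure D3:**
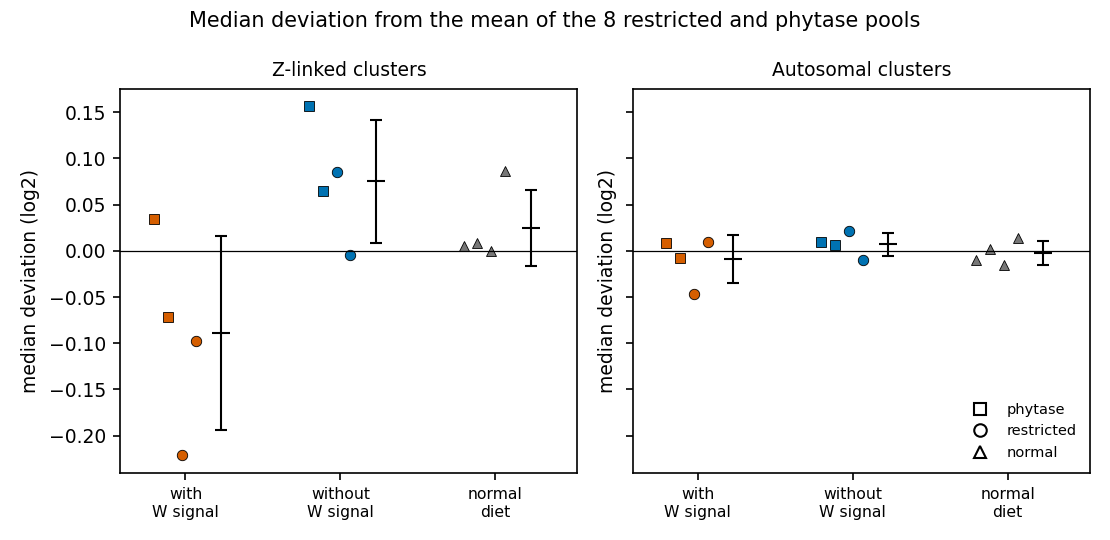
Median deviation from the 8-pool mean (log2) over Z-linked and over autosomal clusters in each pool, with pools with W-linked signal left, pools without it in the middle and normal pools right, and error bars for mean ± SD of 4 pools. Z-linked medians ran from -0.22 to 0.04 with signal and from -0.01 to 0.16 without, so the sides overlapped, while the autosomal medians stayed between -0.05 and 0.02 in these 8 pools.

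Among 29 chromosomes with at least 50 clusters tested, the Z had the lowest median. The next were chromosome 2 at -0.08 and chromosomes 3 and 7 at -0.05, and the highest was chromosome 34 at 0.08. The Z stayed lowest whichever of the 8 pools was left out, with medians from -0.203 to -0.122, and chromosome 2 was next each time, from -0.116 to -0.056. Autosomal medians were graded by chromosome number, which runs from large to small chromosomes in the chicken. They were -0.05 for chromosomes 1 to 5, -0.02 for 6 to 10 and 0.04 for 11 and above, and 59.9%, 53.8% and 42.4% of the clusters were lower. All 3 groups were nearer to 0 than the Z. The gradient was not in every pool. As median deviations from the 8-pool mean, chromosomes 1 to 5 and 11 and above were at -0.11 and 0.03 in restricted replicate 1. They were at -0.0125 and 0.045 in restricted replicate 2 and at -0.025 and 0.014 in phytase replicate 4. Phytase replicate 1, also with signal, ran the other way, at 0.04 and -0.03. Restricted replicate 4, without signal, was at -0.026 and 0.009, against the others of its side.

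Gene length moved with the difference as well. Z-linked genes had a median length of 21.8 kb in the gene table, against 15.6 kb for autosomal genes. In 4 bands of length set by the Z-linked genes, from short to long, the Z-linked medians were -0.08, -0.15, -0.21 and -0.18. The autosomal medians in the same bands were 0.05, -0.01, -0.06 and -0.08. The medians were lower in longer genes, except that the longest Z-linked band was above the band before it, and in each band the Z-linked median was below the autosomal one. In 4 bands of brightness, from dim to bright, the share of Z-linked clusters lower was 70.2%, 69.4%, 84.5% and 83.3%, and that of autosomal clusters was 46.7%, 50.6%, 55.2% and 54.9%. The part of chromosome size and gene length in these differences was not tested.

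**Figure D4:**
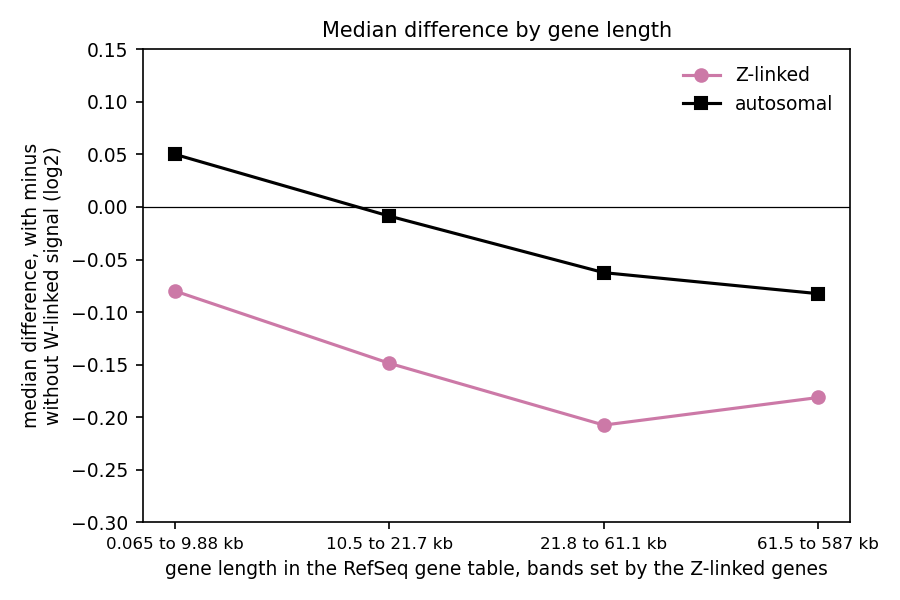
Median difference of pools with minus pools without W-linked signal (log2) in 4 bands of gene length (kb), for Z-linked and autosomal clusters. The Z-linked medians, from -0.08 to -0.21, lay below the autosomal medians, from 0.05 to -0.08, in each band.

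Along the Z, taken in 10 stretches of 33 or 34 clusters in gene order, every median was below 0. The lowest, at -0.25, ran from GNAQ to SPTLC1, with 32 of 33 clusters lower. Next was the stretch from DMRT1, the Z-linked gene of testis determination in birds, to VPS13A, at -0.24. The highest, at -0.06, ran from FAM219A to NUP155, with 18 of 33 lower.

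The 15 Z-linked genes with the smallest p, 1 cluster per gene, held RPL17 and 14 others that did not pass the adjusted threshold. Of the 15, 13 were lower with signal, and these 13 were lower in both diets. Differences of the 14 were between 0.43 and 1.09 in size, with adjusted p from 0.154 to 0.651 in limma. In 9 of the 15 the sides did not overlap, beside the 4.23% and 0.604% of Z-linked clusters given above, but these genes were picked for their p in the same contrast.

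FER, a cytoplasmic tyrosine kinase, was at 3.19 and 2.59 in the phytase pools and at 2.46 and 2.32 in the restricted pools with signal. It was at 3.81 and 3.45 in the phytase pools and at 3.33 and 3.48 in the restricted pools without signal. Every pool with signal was below every pool without it, and the normal pools, at 2.44 to 2.85, lay among the pools with signal. The difference of -0.88 ± 0.17 (SE) had a limma adjusted p of 0.154. The FER mean of 2.64 with signal was under 2.67, so FER passed the filter on low values only through the pools without signal. The FER difference passed at a limma adjusted p of 0.0387 without phytase replicate 1 and of 0.0413 when all 12 pools were fitted. The 12-pool fit left the difference at -0.88. With diet as a block the normal pools, all without signal, entered only its variance and are no added support. NFIL3, a basic leucine zipper repressor, was at 5.46 and 4.43 in the phytase pools and at 3.91 and 4.20 in the restricted pools with signal. It was at 5.68 and 5.17 in the phytase pools and at 5.56 and 5.67 in the restricted pools without signal. The sides overlapped through phytase replicate 1. With no pool left out, the NFIL3 difference was -1.02 ± 0.28 (SE), at a limma adjusted p of 0.626. It was -0.48 with phytase and -1.56 on the restricted diet. Leaving out a pool gave differences from -1.33 without phytase replicate 1 to -0.85 without restricted replicate 1. Among these fits NFIL3 passed only without phytase replicate 1, the pool that overlapped, at a limma adjusted p of 0.0337.

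GOLM1, a Golgi membrane protein, was at 3.90 and 4.24 in the phytase pools and at 3.38 and 3.57 in the restricted pools with signal. It was at 4.53 and 4.58 in the phytase pools and at 4.39 and 4.37 in the restricted pools without signal, and the sides did not overlap. HNRNPK, an RNA-binding protein of transcript processing, was at 6.56 and 6.32 in the phytase pools and at 6.05 and 6.54 in the restricted pools with signal. It was at 7.02 and 6.80 in the phytase pools and at 6.73 and 7.24 in the restricted pools without signal, again with no overlap. ACAA2, a mitochondrial thiolase of fatty acid oxidation, averaged a difference of -0.54 ± 0.16 (SE), and OSTF1, osteoclast stimulating factor, -0.53 ± 0.13 (SE). SPTLC1, a subunit of serine palmitoyltransferase that starts sphingolipid synthesis, differed by -0.71, and AP3B1, a subunit of an endosomal adaptor complex, by -0.70. HAUS6, of the augmin complex of the spindle, differed by -0.67, LRRC2, a leucine-rich repeat protein, by -1.09, and AOPEP, an aminopeptidase, by -0.43. The AOPEP mean of 2.54 with signal was under 2.67, so AOPEP too passed the filter only through the pools without signal. C18orf32 and LOC427439 differed by -0.49 and -0.80.

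CNTFR, the receptor subunit for ciliary neurotrophic factor, was the other named Z-linked gene on the higher side beside RPL17. It was at 6.04 and 6.11 in the phytase pools and at 6.57 and 6.26 in the restricted pools with signal, against 5.84 and 5.58 in the phytase pools and 5.62 and 5.85 in the restricted pools without it. The sides did not overlap, and the difference was 0.52 ± 0.15 (SE, limma adjusted p = 0.646, Benjamini-Hochberg).

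**Figure D5:**
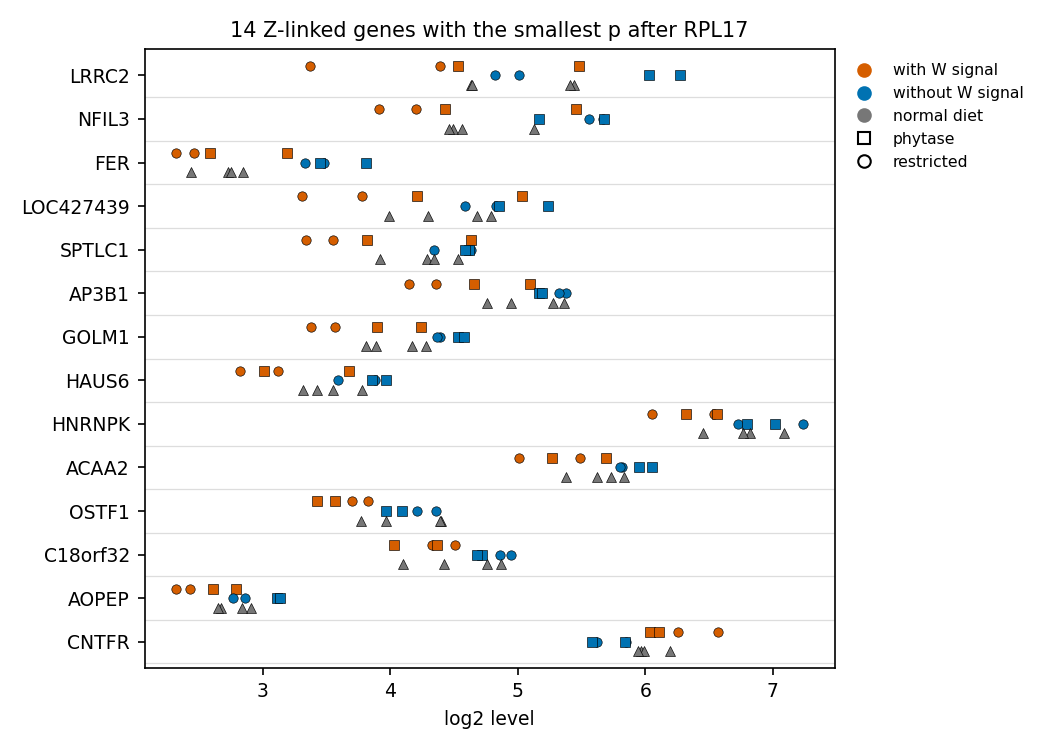
Deposited log2 levels in each pool of the 14 Z-linked genes with the smallest p after RPL17; within a gene, pools with W-linked signal are drawn above pools without it, with normal pools below, and squares are phytase, circles restricted and triangles normal pools. CNTFR was higher with signal, at a difference of 0.52, and the other 13 were lower, with differences from -0.43 to -1.09.

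Z partners of W genes were looked at next, since a hen carries a copy on each chromosome. Of 13 such genes on the array 11 were tested, with the brighter cluster of RPL17 among them. The NEDD4L cluster that the gene table places on the W is also among the 11. Of the 11, 10 were lower, 1 was higher and 0 were called, with a median of -0.19. Without NEDD4L 9 of 10 were lower, with a median of -0.20. The median of the 11 ran from -0.316 without restricted replicate 2 to -0.052 without restricted replicate 1. The median was 0.03 with phytase and -0.23 on the restricted diet. ATP5F1AZ, the Z copy of the ATP synthase alpha subunit, was at 7.71 and 7.56 in the phytase pools and at 7.68 and 7.84 in the restricted pools with signal. It was at 7.71 and 7.42 in the phytase pools and at 8.05 and 7.93 in the restricted pools without signal. The sides overlapped, with a difference of -0.08 ± 0.14 (SE). HINT2, which the gene table lists with the synonym HINTZ, differed by 0.07 ± 0.17 (SE), with overlap. It was added after that annotation was seen and stands outside the 11. Whether HINT2 is the Z partner of HINTW was not tested. HNRNPK was the 1 partner at an unadjusted p under 0.05. UBAP2, of ubiquitin binding, differed by -0.41 ± 0.22 (SE), and by -0.233 without restricted replicate 1, and BTF3, a factor bound to nascent chains, by -0.18. SUB1, a transcription coactivator, differed by -0.23, TXNL1, a thioredoxin-like protein, by -0.22, and GOLPH3, a Golgi phosphoprotein, by -0.06. ZSWIM6 was the 1 of the 11 on the higher side, at 0.09. RASA1, a Ras GTPase activator, had clusters at -0.34 and -0.18.

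No autosomal cluster was called in either direction in limma after adjustment, beside 479 at an unadjusted p under 0.05, or 6.21%. That share was 9.62% without phytase replicate 1, 3.39% without restricted replicate 1 and 3.80% without phytase replicate 2. Without phytase replicate 1, RDX at -0.96 and C21orf91 at -1.13 passed, with limma adjusted p of 0.0392 and 0.0306. The 15 autosomal genes with the smallest p held 14 lower and 1 higher with signal, and 13 did not overlap, beside 1.49% of autosomal clusters lower and 1.39% higher with no overlap. These genes too were picked for their p in the same contrast. Their differences were 0.52 to 0.99 in size, with limma adjusted p from 0.220 to 0.546. CAND1, which exchanges substrate receptors of cullin ubiquitin ligases, was at 4.31 and 4.40 in the phytase pools and at 3.80 and 4.05 in the restricted pools with signal. It was at 5.0 and 4.91 in the phytase pools and at 4.62 and 5.05 in the restricted pools without signal, and the sides did not overlap. RBPJ, the DNA-binding factor of Notch signalling, differed by -0.89 ± 0.19 (SE), with every pool with signal below every pool without it. DLAT, a subunit of pyruvate dehydrogenase, was at 6.30 and 6.19 in the phytase pools and at 6.37 and 6.24 in the restricted pools with signal. It was at 5.65 and 5.73 in the phytase pools and at 5.86 and 5.79 in the restricted pools without signal, a difference of 0.52 ± 0.13 (SE) with no overlap. The rest were ZNF148, CERK, CKAP4, KDELC2, RPS6KA5, MANEA, HMGXB4, U2SURP, ZNF385D, FUCA2, BASP1 and CREBRF, from -0.56 to -0.99.

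The mean of the normal pools was set against the means of the sides. It was nearer to the pools without signal in 3 of the 15 named autosomal genes and in 9 of the 15 named Z-linked genes. Of all clusters lower at an unadjusted p under 0.05, it was nearer in 132 of 344 autosomal clusters, or 38.4%, and in 26 of 54 Z-linked ones, or 48.1%. For the unannotated clusters called higher it was nearer in 11 of 12. These 12 were called in the same contrast, and in 9 the mean without signal was under 2.67. The other sets in this paragraph were also picked for a small p in that contrast, in which the normal pools took no part. No share over all clusters tested is given to set the counts against. Each of these counts is thus a description and no added support, and whether the normal pools follow the split was not tested. Diet and the split cannot be told apart in the normal pools, all of which lacked the signal.

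Gene groups of muscle and of the other cells in the tissue held 0 members that passed the adjusted threshold in any of 18 lists, so they are given by counts and medians beside the 49.2% of all clusters that were lower. Markers of immune cells were lower in 15 of 18, with a median of -0.31. Among them were PTPRC, the pan-leukocyte CD45, at -1.02 ± 0.39 (SE), and MARCO, a macrophage scavenger receptor, at -0.82 ± 0.24 (SE). Both were named for a small p. PTPRC differed by -1.73 on the restricted diet and -0.32 with phytase, and MARCO by -1.26 and -0.38. B2M at -0.0625 and IRF8 at -0.07 lay near 0. The 3 higher members of the immune list were IRF1 at 0.115, CD8A at 0.105 and CD72 at 0.0975. The list's median ran from -0.4655 without restricted replicate 3 to -0.1765 without restricted replicate 4, and PTPRC was at -0.586 without restricted replicate 1. Taken as the median of its members' deviations in each pool, this list ran from -0.32 to 0.13 with signal and from -0.02 to 0.61 without, with restricted replicate 1 the lowest and restricted replicate 4 the highest. Matrix and fibroblast genes were lower in 26 of 32, with a median of -0.14, which ran from -0.2975 without restricted replicate 2 to -0.019 without restricted replicate 1. In that list POSTN, the matrix protein periostin, differed by -0.95 ± 0.26 (SE), and FAP, a fibroblast surface protease, by -0.99 ± 0.28 (SE). PDGFRA, a growth factor receptor of fibroblasts, differed by -0.45 ± 0.15 (SE). These were named for a small p. Other members of the list lay near 0, such as COL1A1 at -0.0075 and VIM at -0.06. The 6 higher members included SPARC at 0.125 and PDGFRB at 0.1475. The list of growth hormone, growth factor and sex steroid genes was lower in 12 of 12, with a median of -0.21. The median was -0.09 with phytase and -0.38 on the restricted diet. Of the 12, 3 are Z-linked, and without these the median was -0.3125. The members were not alike, with ESR1 at -0.05 and NR3C1 and IGF1R at -0.0075 each. MSTN, the inhibitor of muscle growth myostatin, differed by -0.62 ± 0.29 (SE), with -1.14 on the restricted diet and -0.10 with phytase. IGF2 differed by -0.52 ± 0.20 (SE), with -0.865 on the restricted diet and -0.18 with phytase. IGF1 differed by -0.53 ± 0.23 (SE), with -0.545 on the restricted diet and -0.505 with phytase. Without restricted replicate 3 the list's median was -0.1095 and MSTN differed by -0.354, and without phytase replicate 4 IGF1 differed by -0.331. The part of these cells in the Z-linked differences was not tested.

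Oxidative phosphorylation genes lay the other way, with 33 of 42 higher and a median of 0.12, of 0.02 with phytase and 0.18 on the restricted diet, and of 0.055 without restricted replicate 4. UQCRC1, a core protein of complex III, was at 6.69 and 6.78 in the phytase pools and at 7.36 and 7.08 in the restricted pools with signal. It was at 6.45 and 6.56 in the phytase pools and at 6.60 and 6.51 in the restricted pools without signal, so the sides did not overlap, and the normal pools were at 6.86 to 7.14. Heat shock and folding genes were lower in 30 of 42, with a median of -0.09, of 0.02 with phytase and -0.18 on the restricted diet, and of -0.051 without restricted replicate 1. Ribosomal protein genes were lower in 15 of 46, with a median of 0.03, of -0.10 with phytase and 0.14 on the restricted diet. Immediate-early and stress response genes were lower in 12 of 16, with a median of -0.18. The median was 0.02 with phytase, -0.21 on the restricted diet and -0.0345 without restricted replicate 1. Fast-fibre contractile genes were lower in 5 of 11 (median 0.02), slow-fibre genes in 5 of 11 (0.0025), glycolytic genes in 6 of 15 (0.03), proteasome genes in 10 of 26 (0.04), cell cycle genes in 7 of 15 (0.005), fat cell genes in 6 of 10 (-0.06) and vessel genes in 6 of 11 (-0.03). Of the erythroid list 3 of 6 were lower, with a median of 0.025. HBAD was at -0.66 ± 0.33 (SE), HBA1, another alpha globin, at -0.47 ± 0.28 (SE), and EPB42 at -0.115. FECH, ALAD and TFRC were higher, at 0.1975, 0.17 and 0.165. Both globins were highest in restricted replicate 3, a pool without signal, and without it the differences were -0.315 for HBAD and -0.157 for HBA1. Genes of phosphate and calcium handling, the nutrients the diets restricted, were lower in 6 of 13, with a median of 0.01. FGFR1, the FGF receptor that serves phosphate signalling, was at 5.30 and 5.42 in the phytase pools and at 5.55 and 5.57 in the restricted pools with signal. It was at 5.08 and 5.14 in the phytase pools and at 5.15 and 5.19 in the restricted pools without signal. In each of the 18 lists the pools' median deviations with and without signal overlapped.

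Finally, the difference with minus without signal was compared between phytase and restricted pools. Of 12484 clusters 0 differed between the diets in limma's interaction test after adjustment, or 0%, beside 288 at an unadjusted p under 0.05, or 2.31%. The HINTW difference was 5.03 with phytase and 5.55 on the restricted diet, and the ATP5F1AW difference was 1.05 and 1.59. The dimmer RPL17 cluster differed by 3.73 with phytase and by 2.98 on the restricted diet. With 2 pools a side in each diet, such differences between the diets had little precision.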

How the data were processed

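Per the labels' protocols, RNA was extracted with Trizol from breast muscle pools and labelled with the Affymetrix WT plus kit. The deposited values are log2 levels, 1 per transcript cluster and array. The submitters' processing notes name Affymetrix Expression Console and GCRMA without version or role. The logarithm's base was taken as 2 from the values, which ran from 0.83 to 14.36. GCRMA can compress dim signals, so differences among dim clusters may be understated where it was used.

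Of 20804 clusters, 12300 had 1 platform symbol, 256 several and 8248 none. Chromosomes and gene lengths came from RefSeq's gene table (GRCg7b), in which 11727 of the 12300 were found. In all, 1644 clusters shared all values with another, so counts include copies.

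The 8 restricted and phytase arrays were split at a HINTW level of 5, 4 against 4 and 2 against 2 in each diet. The test took clusters whose mean over these arrays reached 2.67, the 40th percentile. limma 3.58.1 (R 4.3.3) was fitted with diet as a block and an intensity trend in the prior variance, with 5 residual degrees of freedom and Benjamini-Hochberg adjustment over 12484 clusters at 0.05. The median SE of a difference was 0.17. The fit was tested on simulated data. W-linked clusters stayed in the fit and in its count of calls, but their values are a description and their calls support nothing.

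All W-linked clusters with 1 symbol, the Z partners of W genes, the 15 Z-linked and 15 autosomal genes with the smallest p, up to 4 genes per list with the smallest p, and HBA1 and HBAD were named. Where a list had several clusters per gene, the brightest was used. Of 20 lists, the 2 with under 5 tested genes, nerve markers and known W genes, got no summary. Pools, members and lists were chosen with earlier results of these data known. Alternatives were other filters, normalizations, priors, weights, covariates and blocks, an offset of 16, copies counted once, all 12 arrays, each diet alone, and leaving out each array.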

Additional observations from a re-analysis of the deposited data

Results flagged for a closer look

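Among 176 groups of 4 pools checked over 88 genes, 6 held a pool that stood apart from the others of its side by Dixon's gap test. Chance does so in about 1 of 20 groups, so the 6 are a smaller share than chance would give. Each group held pools of both diets, and the part of diet in these gaps was not tested. Among pools with W-linked signal, SUB1 was at 6.92 in phytase replicate 1, against 5.28 to 5.56 in the others. In restricted replicate 1, PTPRC was at 2.62, against 4.11 to 4.29, and GOLPH3 at 6.73, against 7.03 to 7.07. Among pools without signal, restricted replicate 4 was at 4.34 for SPTLC1, against 4.59 to 4.63, and at 4.99 for HSPB3, a small heat shock protein of muscle, against 5.88 to 5.99. LOC427010, a dim W-linked cluster, was at 1.43 in restricted replicate 3, against 1.87 to 1.91.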

How the results depend on the processing

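The direction of the median Z-linked difference was lower under all 22 alternatives, from -0.205 within the restricted diet to -0.083 with an offset of 16. Centring on the autosomal median turned the median autosomal difference to 0.035. Counting copies once left 19 clusters called, and fitting all 12 arrays called 2 Z-linked clusters, RPL17 and FER. In that fit the normal pools, all without signal, changed the variance and not the FER difference. Leaving out each pool gave 29 to 39 clusters called, 13 to 22 outside the W and HINTW, 1 to 3 Z-linked and 0 to 2 autosomal. The highest counts came without phytase replicate 1, which added FER, NFIL3 and the autosomal RDX at -0.96 and C21orf91 at -1.13. The share of Z-linked clusters at an unadjusted p under 0.05 was 20.3% without phytase replicate 1, 10.6% without restricted replicate 1 and 9.42% without phytase replicate 2; that of autosomal clusters was 9.62%, 3.39% and 3.80%. Within the phytase diet alone these shares were 4.55% and 1.97%. The slow-fibre median was -0.42 without phytase replicate 4. The call of clusters 15382193 and 15382559 was lost without restricted replicate 1, at -1.19.

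Whether replicate numbers pair the pools is not stated. Correlations of same-numbered deviations were 0.07, 0.03, 0.08 and -0.04 for replicates 1 to 4. The highest with another number were 0.26, 0.11, 0.22 and 0.31. With 1 pool per number in each diet, these values cannot settle the pairing. With the replicate number as a block 26 clusters were called, 10 of them outside the W and HINTW, and BTF3 and GOLPH3 turned to 0.02 and 0.065. Both pools of replicate 1 had signal and both of replicate 3 lacked it. In that fit the difference thus rested on the pools of replicates 2 and 4 only. Within the phytase diet, signs turned for ATP5F1AZ (0.07), SUB1 (0.14), UBAP2 (0.075), GOLPH3 (0.025), RASA1 (0.12), HINT2 (-0.04) and NDUFB9 (-0.01). When a pool was left out, GOLPH3 ran from -0.113 to 0.023 and HINT2 from -0.016 to 0.20. The cause of the turns within the phytase diet and on leaving out a pool was not tested. Array signal limits what dim W-linked clusters can show.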

Other observations

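The 2 clusters lower in pools with signal, 15382193 and 15382559, held identical values and had no symbol. They were at 2.46 and 2.32 in the phytase pools and at 2.0 and 1.93 in the restricted pools with signal. They were at 3.02 and 3.35 in the phytase pools and at 3.64 and 3.77 in the restricted pools without signal, a difference of -1.27 (limma adjusted p = 0.0333, Benjamini-Hochberg). Their mean of 2.18 with signal was under 2.67, so they passed the filter on low values only through the pools without signal. The call was lost without restricted replicate 1, at a limma adjusted p of 0.175. The normal pools, at 1.96 to 2.79, overlapped the pools with signal, although they lacked HINTW signal themselves.

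NDUFB3, a subunit of respiratory complex I, did not overlap between the sides. It was at 6.47 and 6.48 in the phytase pools and at 6.46 and 6.48 in the restricted pools with signal. It was at 6.22 and 6.20 in the phytase pools and at 6.27 and 6.23 in the restricted pools without signal, and the normal pools ran from 6.28 to 6.83. In the immune list, TLR4, the endotoxin receptor, differed by -0.56 and LCP1, the leukocyte actin bundler, by -0.63. The TLR4 mean of 2.49 with signal was under 2.67, so TLR4 was tested only through the pools without signal. In the heat shock list, HSP90B1, a chaperone of the endoplasmic reticulum, differed by -0.71 ± 0.21 (SE), and DNAJB9, a J-domain cochaperone in that compartment, by -0.71. On the restricted diet they differed by -1.065 and -1.12, and with phytase by -0.35 and -0.30. DNAJB9 was at -0.428 without restricted replicate 1. The pair was named for a small p. Of that list 12 of 42 members were higher, such as DNAJB11 at 0.2075, and HSPA5 lay at -0.04. In the phosphate and calcium list, CYP24A1, which degrades active vitamin D, differed by 0.42, while ANKH and ENPP1, of pyrophosphate supply, differed by -0.42 and -0.35. The CYP24A1 mean of 2.56 without signal was under 2.67, so CYP24A1 was tested only through the pools with signal, and its sides overlapped. SMARCA2, a chromatin remodeller on the Z, differed by -0.37, and DMRT1 by -0.005. The list of sex development genes was lower in 3 of 5, with a median of -0.005, of -0.045 with phytase and 0.055 on the restricted diet. None of the genes in this paragraph passed the adjusted threshold.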
